A study of Mus musculus with 16 samples.

Results

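The response of the wild-type mouse heart to bacterial endotoxin was described from 8 of the 16 arrays of the series, 4 from mice given lipopolysaccharide (LPS) and 4 from mice given saline. The arrays were taken by their labels alone, and the comparison covered all 18193 genes with a probe set of their own. The mice of these 8 arrays were males on a CD1 background, 14 weeks of age, wild-type for the adenosine 2A receptor (A2AR) and littermates of the knockout mice on the other 8 arrays. LPS from E. coli was injected once into the peritoneum at 20 mg/kg, saline vehicle was the control, and ventricular myocardium was collected at 24 h. Nothing beyond the replicate numbers says whether each array came from a mouse of its own, so p-values measure the spread between samples. That spread was estimated within the groups of all 16 arrays. The values are log2 intensities of Affymetrix probe sets, a level of 1 more being 2-fold brighter.

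LPS is a component of the outer membrane of Gram-negative bacteria. Macrophages, endothelial cells and cardiomyocytes sense it through Toll-like receptor 4 with Cd14, which activates NF-kB and, through a second adaptor, interferon regulatory factors. NF-kB drives chemokines, cytokines and adhesion molecules, and interferons act on neighbouring cells through JAK kinases and STAT factors to switch on antiviral genes, immunity GTPases and antigen presentation. In the heart, endotoxin is known to weaken contraction and to lower fatty acid oxidation and mitochondrial gene expression. A whole-tissue array measures all cell types together, so fewer cells of a type and less RNA per cell cannot be told apart in any of these values.

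The stretches before the gene starts of 7 strongly raised genes are shown because they hold the letters by which 3 arms of this response are usually recognised: the interferon element, the NF-kB (kB) site and the C/EBP site. The sequences are RefSeq's, on assembly GRCm38.p6, each read 5′ to 3′ on the gene's strand. Each stretch begins 20 bases before the first match in a window of 250 bases before to 50 after the gene's start, and ends at the start or after 120 bases. Capitals mark matches on either strand to GAAA, any 2 bases and GAAA (interferon element), TTCNNNGAA (STAT element), GGGA, any base and TTTCC (kB) or TTGCNNAA (C/EBP). Ifit1 lies at chr19:34640765-34640884 on the plus strand, Igtp at chr11:58199491-58199555 (plus), Cxcl1 at chr5:90891154-90891244 (plus), Cxcl2 at chr5:90903782-90903898 (plus), Il6 at chr5:30012966-30013085 (plus), Saa3 at chr7:46715702-46715821 (minus) and Lcn2 at chr2:32387856-32387975 (minus).
Ifit1: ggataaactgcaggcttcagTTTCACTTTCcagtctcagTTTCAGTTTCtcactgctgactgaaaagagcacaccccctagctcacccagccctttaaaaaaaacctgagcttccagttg
Igtp: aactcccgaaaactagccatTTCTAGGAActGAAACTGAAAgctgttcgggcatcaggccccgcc
Cxcl1: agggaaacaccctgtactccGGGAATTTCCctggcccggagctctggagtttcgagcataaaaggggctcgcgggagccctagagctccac
Cxcl2: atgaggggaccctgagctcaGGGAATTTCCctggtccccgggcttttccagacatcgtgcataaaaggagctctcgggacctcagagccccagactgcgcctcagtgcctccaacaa
Il6: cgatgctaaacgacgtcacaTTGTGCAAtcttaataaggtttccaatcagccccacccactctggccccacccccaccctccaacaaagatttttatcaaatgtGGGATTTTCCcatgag
Saa3: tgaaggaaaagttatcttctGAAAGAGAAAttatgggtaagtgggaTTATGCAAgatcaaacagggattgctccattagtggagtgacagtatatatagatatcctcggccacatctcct
Lcn2: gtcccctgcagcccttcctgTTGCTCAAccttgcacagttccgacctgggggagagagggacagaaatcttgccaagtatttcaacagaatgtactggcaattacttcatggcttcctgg

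Ifit1, an antiviral RNA-binding protein, held 2 interferon elements, and Igtp, an immunity-related GTPase, held 1 beside a STAT element, whose search pattern matches both strands. The neutrophil attractants Cxcl1 and Cxcl2 each held the kB site GGGAATTTCC, 71 and 97 bases before the start. In Il6 a C/EBP site lay 128 bases and a kB site 44 bases before the start. Saa3, an acute-phase apolipoprotein, held an interferon element and a C/EBP site, and Lcn2, an iron-siderophore binding protein, a C/EBP site 216 bases before its start. Of 18109 windows of 300 bases for 14452 tested genes, 3.03% held the interferon element, 7.21% the STAT element, 0.469% the kB site and 9.39% the C/EBP site. Among genes called at least 8-fold higher these shares were 20.6%, 17.6%, 4.41% and 20.6% of 68 windows, and among genes called at least 2-fold lower 3.74%, 5.12%, 0.197% and 8.66% of 508 windows. By list, the interferon element stood in 6 of 8 windows of the immunity GTPases and 13 of 36 of the antiviral genes, the kB site in 3 of 6 of the neutrophil-attracting chemokines, and the C/EBP site in 11 of 20 of the acute-phase proteins. A match says only that the letters are present. Letters of the estrogen-related receptor element (TCAAGGTCA) stood in 0.342% of all windows and in 1 of 33 windows of respiratory complexes III, IV and V.

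By limma's moderated test with Benjamini-Hochberg adjustment over all 18193 genes, 3798 genes (20.9%) were called at an adjusted p under 0.05. Of these 1689 (9.28%) were higher and 2109 (11.6%) lower after LPS, and for 4152 genes (22.8%) every LPS array lay to 1 side of every saline array (1985 above, 10.9%, and 2167 below, 11.9%). Falls outnumbered rises, but the largest changes were mostly rises. The 1031 calls of at least 2-fold (5.67%) were 549 rises and 482 falls, and the 240 of at least 4-fold (1.32%) were 181 and 59. Of 92 calls of at least 8-fold (0.506%) 84 were rises, and of 34 of at least 16-fold (0.187%) 31 were. The median change over all genes was -0.004, and among the called genes 0.69 for rises and -0.66 for falls. At an unadjusted p under 0.05 there were 5613 genes (30.9%). Where a saline level lies under the median over all probe sets (4.64), as for Lcn2, Cxcl2, Cxcl5, Cxcl9, Cxcl10, Il6, Csf3, Ptx3, BC023105, Fpr2, Nfkbie, Usp18, Nlrc5, Acod1, Ada, S100a9 and Itgam, the size of the rise depends on the array's background. The same holds for falls to an LPS level under it, as for Car3, Adipoq, Fmod, Col14a1, Ptgfr, Kcna1, Pde5a and Cx3cr1.

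**Figure D1:**
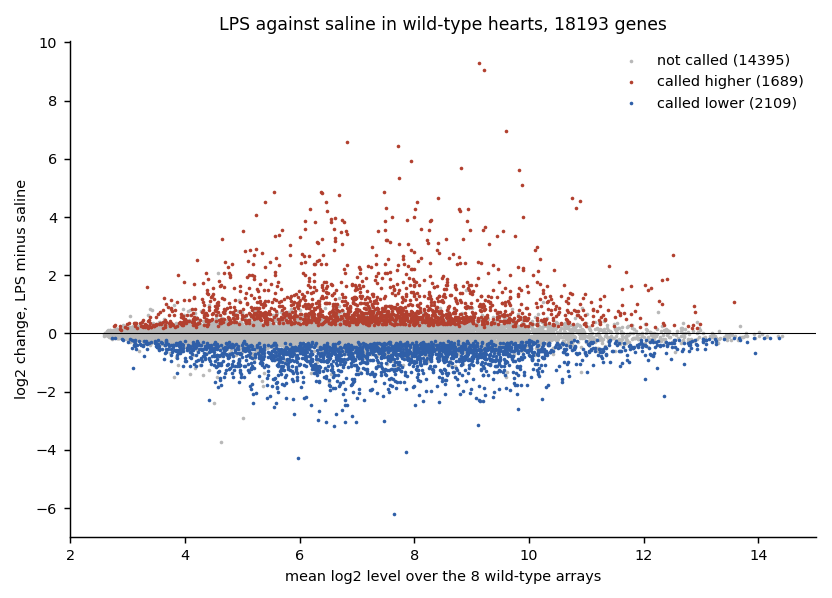
Each point is 1 of 18193 genes, with its mean log2 level over the 8 wild-type arrays on the x axis and its log2 change (LPS minus saline) on the y axis. Genes called higher (1689) and lower (2109) are coloured, and the rises reach 9.28 where the falls reach -6.20.

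Lcn2, Saa3 and Serpina3n, which encode secreted proteins, had rises among the largest. Lcn2 lay at 4.68, 5.18, 4.27 and 3.80 in the saline arrays and at 13.89, 13.80, 13.92 and 13.44 in the LPS arrays, a rise of 9.28 ± 0.21 (log2 change ± standard error here and throughout, adjusted p = 9.02e-15). Saa3 went from 4.93, 4.83, 4.13 and 4.87 to 13.75, 13.81, 13.74 and 13.63. The protease inhibitor Serpina3n went from 6.26, 6.44, 5.95 and 5.86 to 13.15, 13.01, 13.03 and 13.13. In these 3 genes the 4 LPS arrays lay close together and far from every saline array. Their LPS levels were not far under the brightest value on the 8 arrays (14.49), and its part in this closeness was not tested. Fpr2, a receptor for bacterial formyl peptides, rose by 4.52 ± 0.15, and Cd274, the T cell checkpoint ligand PD-L1, by 5.35 ± 0.54. Lrg1, a secreted glycoprotein that acts on TGF-beta signalling, rose by 4.54 ± 0.18, with LPS arrays at 12.80 to 13.50. BC023105 rose by 6.56 ± 0.40.

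LPS array 4 showed part of the response. For each LPS array in turn, genes called at least 2-fold in the fit without it were taken, and the array's distance from the saline mean was expressed as a share of the change in the other 3. The median share was 94.5% for array 1 (1014 genes), 113.4% for array 2 (930 genes), 117.2% for array 3 (909 genes) and 47.7% for array 4 (1281 genes). For arrays 1 to 3 the reference included array 4, and each array had its own set of genes, so the 4 shares are not on 1 scale. In array 4 it was 58.8% over rises and 43.0% over falls, and 166 of the 1281 genes lay within the saline range, against 14, 4 and 7 in the other arrays. For 329 of the 1281 genes a further probe set of the gene changed at least 2-fold the same way. Over those genes the median share of array 4 was 49.8% on the probe set used and 46.2% on the further one. Ratios of the 3′ to the 5′ control probe sets, a sign of RNA quality, were on the log2 scale 0.14 in array 4 for Gapdh, within the range of 0.01 to 0.48 over the 8 arrays. For Actb the ratio was 1.30 in array 4, the highest of the 8, against 0.99 to 1.28 in the others, and its part in the result was not tested.

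Over 55 lists with at least 4 such genes, the share in array 4 ran from 9.8% to 112.7%. It was 18.5% over 10 immediate early genes, 27.5% over 4 neutrophil-attracting chemokines and 21.1% over 12 potassium channel genes. It stood at 69.3% over 10 NF-kB subunits and inhibitors, 72.3% over 10 immunity GTPases and 80.0% over 34 antiviral genes. At the upper end it was 92.7% over 12 acute-phase proteins, 94.4% over 7 complement genes, 95.6% over 7 leukocyte adhesion genes and 112.7% over 4 CC chemokines. These shares describe 1 array, and the difference between lists was not tested. Without array 4, 4902 genes (26.9%) were called, 1999 higher and 2903 lower. Of them 3577 were also called with it, all in the same direction, 1325 were called only without it and 221 only with it.

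**Figure D2:**
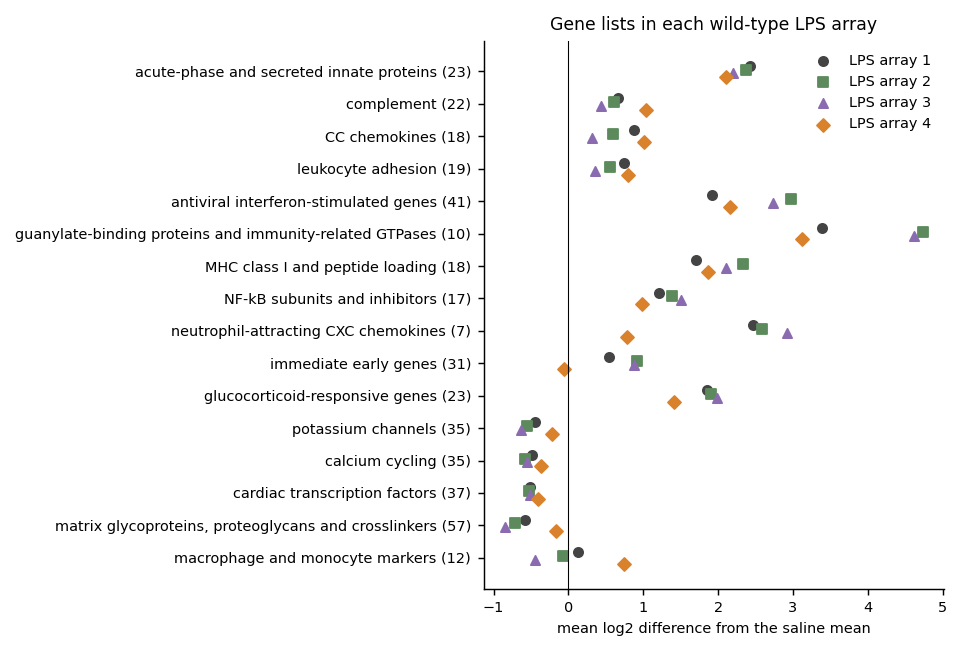
Mean log2 difference from the saline mean over the measured members of 16 gene lists (rows, with the number of members), drawn for each of the 4 wild-type LPS arrays. Of the 4 arrays, array 4 lies nearest 0 for immediate early genes, neutrophil-attracting chemokines, potassium channels and matrix glycoproteins, and furthest from 0 for complement, CC chemokines and macrophage markers.

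LPS sensing genes rose for 10 of 21 measured members and fell for 1. Tlr2, the receptor for bacterial lipoproteins, rose by 3.18 ± 0.32, and the LPS co-receptor Cd14 by 2.28 ± 0.14 with LPS arrays at 8.22 to 8.53. The receptor Tlr4 itself was at 6.68, 6.71, 6.63 and 6.61 after saline and 7.51, 7.35, 6.85 and 6.69 after LPS, with a change of 0.44 ± 0.27 that did not pass the test (adjusted p = 0.303). Negative regulators of the pathway were among the risers: Irak3, a kinase-like inhibitor, rose by 2.53 ± 0.16, and Tnfaip3, a ubiquitin-editing enzyme that restrains NF-kB, by 2.96 ± 0.35. Ly86, which partners the Tlr4 homologue Rp105, fell by 0.65 ± 0.15. Of 17 NF-kB subunits and inhibitors, 15 rose and 0 fell. Their risers included Nfkbiz, a nuclear co-regulator, by 3.54 ± 0.39, and Nfkbie and Bcl3, further inhibitor family members, by 2.07 ± 0.18 and 1.62 ± 0.17. The subunit Rel had a change of 0.15 ± 0.18 (adjusted p = 0.648). Casp4, the caspase that binds LPS in the cytosol, rose by 3.07 ± 0.27, and Gsdmd, the pore-forming protein it cleaves, by 1.25 ± 0.18, while Il18, a cytokine matured in this pathway, had a change of 0.09 ± 0.13 (adjusted p = 0.707).

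Chemokines and cytokines fell into groups by how the 4 LPS arrays were ordered. Of 7 neutrophil-attracting CXC chemokines 4 rose and 0 fell. Cxcl1 lay at 5.88, 5.65, 5.93 and 5.68 after saline and at 10.64, 10.51, 11.02 and 9.0 after LPS. Cxcl5 lay at 3.11, 3.19, 3.02 and 3.16 after saline and at 8.31, 9.12, 9.85 and 4.62 after LPS, so that array 4 showed a small part of the rise (4.86 ± 0.96, and 5.98 without it). Il6, the main inducer of the acute phase, lay at 3.12, 3.10, 3.20 and 3.38 after saline and at 7.34, 9.13, 9.02 and 3.61 after LPS. LPS array 4 was just above the saline arrays for Il6, and the rise was 4.08 ± 0.93 with it and 5.30 without it (adjusted p = 0.00422 and 8.52e-06). Csf3, the granulocyte growth factor, was also lowest in array 4, at 8.53, 9.43, 10.20 and 4.53 in the LPS arrays, and rose by 3.83 ± 0.87 with array 4 and 5.04 without it.

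All 3 measured interferon-induced CXC chemokines rose, each with LPS arrays 2 and 3 above arrays 1 and 4. Cxcl9, a T cell attractant, lay at 10.05, 11.81, 11.76 and 10.18 after LPS against 4.03 to 4.85 after saline (6.45 ± 0.37). Cxcl10, which binds the same receptor, lay at 6.27, 10.13, 10.69 and 6.96 after LPS against 4.34 to 4.67 after saline (3.94 ± 0.70). For Cxcl11, the third, the LPS arrays lay at 4.73, 7.46, 7.06 and 3.78 and array 4 was within the saline range. Its rise of 1.93 ± 0.62 (adjusted p = 0.0332) was lost without LPS array 2 or 3 or any 1 saline array, and was 2.59 without LPS array 4. Cxcl13, a B cell attractant, had the opposite order, at 11.10, 9.54, 8.79 and 11.51 after LPS against 5.50 to 6.87 after saline (3.91 ± 0.57). Cxcl12, which retains leukocytes and progenitors, fell by 1.88 ± 0.30. Of 18 CC chemokines 4 rose and 1 fell, a share called of 27.8% against 20.9% of all genes. The risers included the monocyte attractants Ccl2 (3.52 ± 0.28) and Ccl7 (2.66 ± 0.30) and the T cell attractant Ccl5 (3.26 ± 0.23). Of 27 interleukins, TNF family and colony-stimulating factors 9 rose and 1 fell. The alarmin Il33 rose by 2.39 ± 0.37, the interleukin-18 inhibitor Il18bp by 2.57 ± 0.23 and the macrophage growth factor Csf1 by 1.26 ± 0.17. Among 27 cytokine receptors 12 rose and 3 fell. The oncostatin M receptor Osmr rose by 2.39 ± 0.23 and Csf2rb, a shared receptor chain, by 2.73 ± 0.16, while the leukaemia inhibitory factor receptor Lifr fell by 1.08 ± 0.19. The common signalling chain Il6st was at 10.24 to 10.57 after saline and 10.32 to 10.97 after LPS and did not pass (adjusted p = 0.361).

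**Figure D3:**
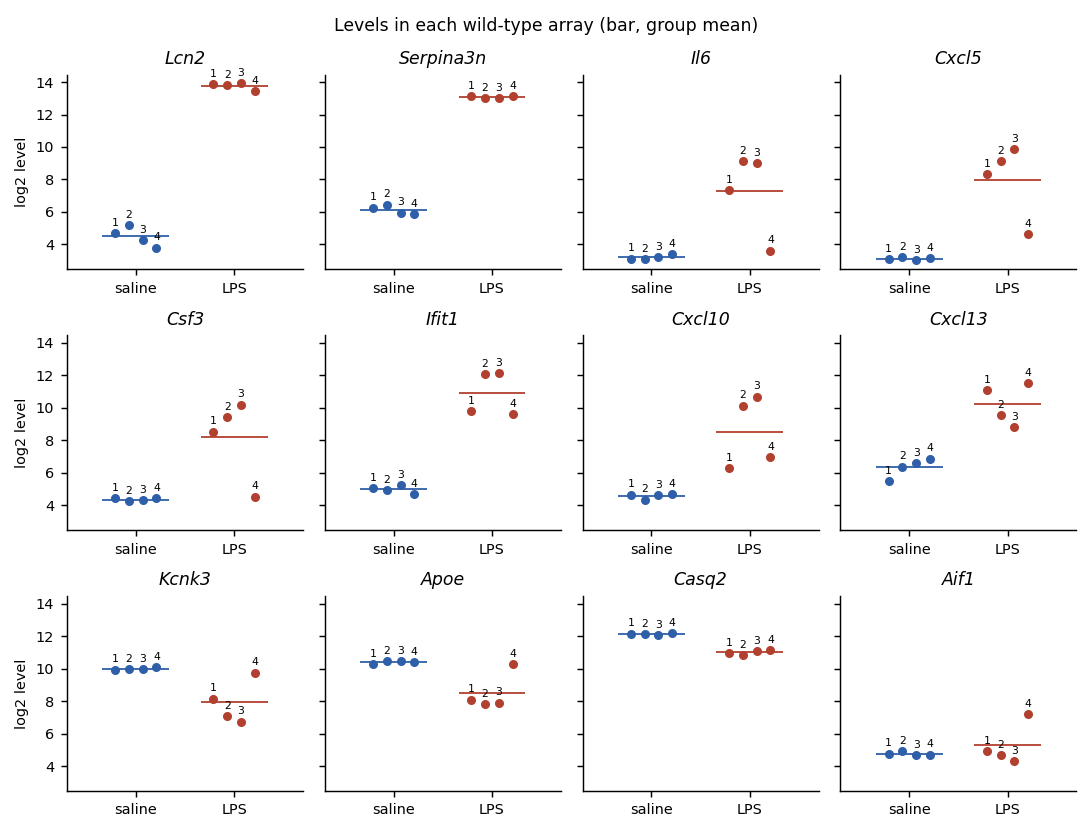
Log2 level of 12 genes in each of the 8 wild-type arrays, with saline arrays on the left and LPS arrays on the right of each panel, numbered by replicate, and the group mean as a bar. In Il6, Cxcl5 and Csf3 LPS array 4 lies near the saline arrays, in Ifit1 and Cxcl10 arrays 2 and 3 lie above arrays 1 and 4, and in Aif1 array 4 alone is raised.

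Interferon-responsive genes rose almost throughout. Of 41 antiviral genes 40 rose and 0 fell, with a median change of 2.35 against -0.004 over all genes. Ifit1 lay at 5.03, 4.94, 5.22 and 4.68 after saline and at 9.82, 12.08, 12.14 and 9.59 after LPS. Arrays 2 and 3 again lay above arrays 1 and 4, and all 4 lay above every saline array (5.94 ± 0.46, adjusted p = 1.03e-07). The member that did not pass was Ifi27l2a, at 10.22, 9.78, 8.84 and 11.66 in the LPS arrays against 9.01 to 9.55 after saline, with array 4 the highest. Usp18, which limits interferon signalling, rose by 4.77 ± 0.37, and Oasl2, an antiviral sensor family member, by 4.01 ± 0.22. All 10 measured immunity GTPases rose, with a median of 4.28. Igtp lay at 6.52, 7.26, 7.81 and 7.67 after saline and 12.13, 13.01, 12.91 and 11.65 after LPS, and Gbp6 at 8.26, 8.29, 8.54 and 8.60 and 12.63, 13.70, 13.62 and 12.33. Near-identical copies, as in these GTPase families, the H2 genes and the metallothioneins, leave the share of each copy uncertain.

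Of 18 genes of MHC class I presentation 15 rose and 0 fell. The transactivator Nlrc5 rose by 3.98 ± 0.34, the peptide transporter subunit Tap1 by 3.82 ± 0.30 and the immunoproteasome subunit Psmb8 by 3.55 ± 0.17. B2m, the light chain of class I molecules and one of the most abundant risers, lay at 11.10, 11.30, 11.65 and 11.58 after saline and 13.11, 13.60, 13.34 and 12.86 after LPS (1.82 ± 0.16). Class II genes did not follow, with 2 of 12 higher and 1 lower. The class II chain H2-Aa fell by 0.99 ± 0.16, while its partner H2-Ab1 had a change of -0.10 ± 0.16 (adjusted p = 0.74) and the invariant chain Cd74 one of -0.36 ± 0.19 (adjusted p = 0.212). Among 29 JAK, STAT, IRF and SOCS genes 12 rose and 1 fell. Irf7, which amplifies interferon production, lay at 9.10, 10.31, 9.98 and 10.20 after LPS against 4.69 to 5.26 after saline (4.86 ± 0.22), Stat2 and Irf9, which form the interferon-activated factor, rose by 2.38 ± 0.23 and 2.09 ± 0.19, and the feedback inhibitor Socs3 by 3.99 ± 0.41. Socs3 was at 10.41, 10.90, 10.45 and 8.22 in the LPS arrays, and its rise without array 4 was 4.58.

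Among 23 acute-phase proteins and other secreted innate factors 14 rose and 0 fell. Ptx3, a soluble pattern recognition protein, lay at 8.95, 9.68, 10.24 and 5.44 after LPS against 4.25 to 4.51 after saline (4.21 ± 0.69, and 5.26 without array 4). Lcn2, Saa3, Serpina3n and Lrg1 were close to full in array 4. Their LPS levels lay nearer the brightest value on the 8 arrays (14.49) than those of Ptx3, and the part of this was not tested. Orm1 and Apcs, plasma proteins of the liver, had changes of 0.76 ± 0.38 and -0.06 ± 0.08 (adjusted p = 0.179 and 0.684). Complement genes rose for 7 of 22 and fell for 1. Cfb, of the alternative pathway, was highest in array 4, at 8.45, 8.75, 8.32 and 9.20 after LPS (3.89 ± 0.19), and the classical pathway proteases C1ra and C1s1 rose by 2.59 ± 0.15 and 2.43 ± 0.19. C1qa and C1qb, made mainly by macrophages, were at 9.15, 8.82, 8.42 and 10.34 and 8.58, 8.70, 8.10 and 9.84 in the LPS arrays against 8.55 to 8.85 and 7.96 to 8.30 after saline, with array 4 alone well above the rest (adjusted p = 0.338 and 0.186). The summed macrophage markers were also highest in array 4, and their part in these values was not tested.

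Genes that hold or move metals rose in part. Of 33 iron, haem and copper genes 12 rose and 2 fell. Hp, which binds free haemoglobin, rose by 2.87 ± 0.26, Cp, a copper ferroxidase, by 2.86 ± 0.11, and Hmox1, which degrades haem, by 2.34 ± 0.40 (2.85 without array 4). The transferrin receptor Tfrc fell by 1.92 ± 0.29. Ferritin heavy chain, Fth1, was at 13.49 to 13.62 after saline and 13.72 to 13.83 after LPS, a change of 0.24 ± 0.11 that did not pass (adjusted p = 0.166). The metal-binding protein Mt2 lay at 7.03 ± 0.29 after saline and 12.63 ± 0.95 after LPS (mean ± SD, n = 4 each), with array 4 at 11.22 (5.60 ± 0.32). Mt1 lay at 11.16 ± 0.12 and 13.86 ± 0.46, with array 4 at 13.17 (2.70 ± 0.15). In both genes array 4 was the lowest LPS array and above every saline array. The zinc and iron importer Slc39a14 rose by 2.06 ± 0.30.

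Among genes for making and breaking down proteins, most members of the lists of ribosome biogenesis, cytosolic ribosomal proteins, translation factors and atrophy were not called, and those called are given here. Of 57 ribosome biogenesis genes 26 rose and 0 fell, with a median of 0.35 (35 rises without array 4). Rrp12, a factor in subunit export, rose by 1.77 ± 0.25, Pes1, needed for the large subunit, by 0.92 ± 0.11 and Nhp2, of the guide RNA complexes, by 0.92 ± 0.15. The nucleolar protein Ncl had a change of 0.21 ± 0.09 (adjusted p = 0.146). Cytosolic ribosomal proteins rose for 8 of 33 and fell for 0, with a median of 0.15 and a share called of 24.2%, close to the 20.9% of all genes. Mitochondrial ribosomal proteins went the other way: 25 of 73 fell and 0 rose, with a median of -0.28, among them Mrpl18 (0.87 lower) and Mrpl19 (0.83 lower). Translation factors rose for 13 of 31 and fell for 1, led by Eif1a (1.88 ± 0.34) and the translational repressor Eif4ebp1 (1.48 ± 0.11). Of 34 constitutive proteasome subunits 23 rose and 0 fell. Psma5 lay at 10.36, 10.39, 10.40 and 10.43 after saline and 11.49, 11.60, 11.55 and 10.95 after LPS, and Psmd11 at 11.02, 10.92, 11.03 and 10.94 and 11.66, 11.81, 11.96 and 11.75, without overlap. In the atrophy and autophagy list 11 of 36 rose and 2 fell. The lysosomal protease Ctsl rose by 1.63 ± 0.16, and Fbxo32, the muscle ubiquitin ligase atrogin-1, by 1.20 ± 0.26, with LPS arrays at 11.55, 11.19, 11.40 and 9.80 array 4 lying within the saline range (1.60 without it).

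Stress and growth control genes were mixed. Unfolded protein and ATF4 genes rose for 16 of 40 and fell for 2. Targets of the amino acid response rose, the glutathione-degrading enzyme Chac1 by 2.04 ± 0.33 and the serine synthesis enzyme Psat1 by 1.69 ± 0.20, while the chaperone Hspa5 had a change of 0.18 ± 0.09 (adjusted p = 0.171) and Ddit3, a stress factor, fell by 0.55 ± 0.13, a call lost without saline arrays 1 and 4. The cell cycle inhibitor Cdkn1a lay at 7.37, 7.48, 8.22 and 7.97 after saline and 10.61, 11.57, 11.49 and 10.77 after LPS (3.35 ± 0.28), whereas its relative Cdkn1c fell by 1.87 ± 0.22. Of 33 BCL2 family and death receptor genes 12 rose and 0 fell, with the necroptosis genes Zbp1 (3.60 ± 0.25) and Mlkl (2.38 ± 0.26) and the death receptor Fas (1.87 ± 0.20) among them. Immediate early genes rose for 9 of 31, a share called of 29.0% against 20.9% of all genes, and for 13 without array 4. Myc lay at 7.83, 7.98, 8.29 and 5.52 after LPS against 4.20 to 5.15 after saline, and Junb at 9.18, 8.84, 8.90 and 6.70 against 6.0 to 6.56. In both, array 4 was near the saline arrays, and the rises were 2.65 ± 0.45 and 2.07 ± 0.38 with it and 3.27 and 2.64 without it. Glucocorticoid-responsive genes rose for 15 of 23 and fell for 1. Fkbp5, a chaperone of the receptor, lay at 7.62, 7.42, 7.11 and 6.74 after saline and 10.34, 10.62, 10.61 and 10.32 after LPS, with array 4 in full, while the receptor itself, Nr3c1, fell by 0.98 ± 0.10 on its brightest probe set and was not called on its most variable one.

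Of 164 transcription factors 32 rose and 45 fell. Cebpd, an acute-phase regulator, lay at 8.27, 7.74, 7.51 and 7.53 after saline and 11.06, 11.31, 10.98 and 9.95 after LPS (3.06 ± 0.25). Zfp697, a zinc finger factor, rose by 2.49 ± 0.36. Among the falls were Snai2 (1.56 lower), a mesenchymal repressor, and Sox7 (1.63 lower), an endothelial factor. Of 24 clock genes and outputs 6 fell, 1 rose and 17 were not called, a share called of 29.2% against 20.9% of all genes. The falls included the output factor Hlf (1.89 ± 0.23 lower) and the clock repressor Nr1d2 (1.08 ± 0.18 lower). In the saline arrays Dbp ranged from 8.36 to 10.23, with arrays 1 and 2 high, and its LPS arrays lay at 8.17, 6.50, 6.74 and 8.51, overlapping the saline arrays, with a fall of 1.82 ± 0.44 (adjusted p = 0.00664).

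Cardiac transcription factors fell for 20 of 37 and rose for 1, with a median of -0.47. Hey1, a Notch target, lay at 7.37, 7.27, 7.68 and 7.42 after saline and 5.56, 4.97, 5.27 and 6.65 after LPS and fell by 1.82 ± 0.26. Myocd, a co-activator of muscle genes, fell by 1.55 ± 0.39, and Prdm16, needed for compact myocardium, by 1.12 ± 0.17. Mef2c, a core muscle factor, fell by 1.41 ± 0.21, though on its probe set array 4 was at 7.95, below the other LPS arrays (9.09 to 9.37). On 4 further Mef2c probe sets array 4 lay above all 3 other LPS arrays, with falls of 0.79 to 1.16. Gata6 was at 9.22 to 9.47 after saline and 8.86 to 9.25 after LPS (adjusted p = 0.147).

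Contractile genes fell for 20 of 46 sarcomere and Z-disc members and rose for 3. Myosin heavy chain Myh6 was at 14.35 to 14.45 after saline and 14.21 to 14.45 after LPS (adjusted p = 0.237), and cardiac troponin T, Tnnt2, at 14.05 to 14.08 and 14.02 to 14.12 (adjusted p = 0.909). The brightest value on the 8 arrays was 14.49, so these levels leave little room for a rise. Lmod3, an actin filament protein, lay at 9.91, 9.64, 9.32 and 9.56 after saline and 6.88, 7.08, 6.75 and 8.35 after LPS and fell by 2.35 ± 0.35. Fhl2, a sarcomeric signalling protein, fell by 1.55 ± 0.33 and Nebl, a Z-disc protein, by 1.08 ± 0.18, the latter not called on its most variable probe set. The stretch-responsive ankyrin repeat genes rose, Ankrd2 by 3.27 ± 0.63, with LPS arrays from 6.92 to 9.80, and the abundant Ankrd1 by 1.09 ± 0.16. Tuba4a, a tubulin and the most abundant gene to fall by over 4-fold, lay at 13.46, 13.48, 13.26 and 13.50 after saline and 11.26, 10.78, 11.35 and 11.75 after LPS.

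Calcium cycling genes fell for 17 of 35 and rose for 1. Casq2, the calcium store protein of the sarcoplasmic reticulum, lay at 12.16, 12.14, 12.09 and 12.19 after saline and 10.98, 10.85, 11.07 and 11.15 after LPS, a fall of 1.13 ± 0.08 with array 4 close to the other LPS arrays. Jph2, which holds the T-tubule to that store, fell by 1.71 ± 0.23, and Asph, which encodes junctin among its products, by 2.19 ± 0.20. The release channel Ryr2 and its pump regulator Pln had changes of -0.13 ± 0.10 and -0.22 ± 0.29 (adjusted p = 0.439 and 0.668). Of 35 potassium channel genes 16 fell and 3 rose. Kcnk3, a background channel, lay at 9.94, 9.96, 9.99 and 10.10 after saline and 8.16, 7.10, 6.74 and 9.76 after LPS, with array 4 just below the saline range (2.06 lower, 2.66 without array 4). Kcnip2, a subunit of the transient outward current, was likewise highest in array 4 of the LPS arrays, at 8.0, 8.16, 8.71 and 9.56, and fell by 1.28 ± 0.25, a call lost on its most variable probe set. Kcna1 fell by 1.80 ± 0.21 in all 4 LPS arrays. Adrenergic and cAMP genes fell for 21 of 50 and rose for 2. The phosphodiesterases Pde4d, Pde7a and Pde5a fell by 1.32 ± 0.17, 1.29 ± 0.21 and 1.31 ± 0.22, the cyclase Adcy7 by 1.51 ± 0.21, and the receptor kinase Grk5 rose by 1.21 ± 0.14. Pde4b lay at 10.29, 10.38, 10.32 and 6.86 after LPS against 7.44 to 7.94 after saline, with array 4 below every saline array. Its rise of 1.78 ± 0.57 (adjusted p = 0.0355) was lost when any 1 of the other 7 arrays was left out and was 2.65 without array 4 (adjusted p = 1.33e-06).

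Among regulators of mitochondrial metabolism and respiratory chain genes, those called were mostly lower, and outside complex I most members were not called. Of 28 PGC-1, PPAR and ERR regulators 11 fell and 1 rose. Perm1, a muscle-specific partner of PGC-1, lay at 9.43, 9.13, 9.14 and 9.26 after saline and 6.23, 6.32, 6.48 and 8.14 after LPS and fell by 2.45 ± 0.32. Ppargc1b fell by 1.51 ± 0.21 and Lpin1, a co-activator and phosphatase, by 1.55 ± 0.26. Ppargc1a, the main PGC-1 gene, fell by 2.23 ± 0.34 on its brightest probe set, at 8.65, 8.37, 8.35 and 6.48 in the LPS arrays. On 4 further probe sets array 4 lay at 8.27 to 8.78, near the low end of the saline arrays and above the other LPS arrays, with falls of 1.16 to 1.47. Complex I genes fell for 22 of 34 and rose for 0, with a median of -0.26, and genes of complexes III, IV and V fell for 15 of 39, with a median of -0.17. Ndufb10 lay at 12.91, 12.81, 12.81 and 12.82 after saline and 12.37, 12.16, 12.19 and 12.56 after LPS. Tricarboxylic acid cycle and pyruvate dehydrogenase genes fell for 9 of 35 and rose for 2, a share called of 31.4% against 20.9% of all genes. Ogdh fell by 0.48 ± 0.08 and Dlst by 0.55 ± 0.11 (not called on its most variable probe set). The risers were Acod1, which diverts the cycle to itaconate in macrophages (3.37 ± 0.13), and Pdk4, which shuts pyruvate dehydrogenase (1.87 ± 0.38).

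Of 42 genes of fatty acid uptake and oxidation 3 fell and 6 rose, a share called of 21.4% that was close to the 20.9% of all genes. Lipoprotein lipase, Lpl, was at 13.89 to 13.95 after saline and 13.90 to 13.93 after LPS (adjusted p = 0.915), while its inhibitor Angptl4 lay at 10.40, 10.44, 10.22 and 6.62 after LPS against 4.93 to 5.90 after saline (3.85 ± 0.64, and 4.79 without array 4). Glucose uptake and glycolysis genes fell for 16 of 37 and rose for 6. The insulin-responsive transporter Slc2a4 lay at 11.35, 11.36, 11.26 and 11.32 after saline and 9.94, 9.61, 9.71 and 10.90 after LPS and fell by 1.28 ± 0.20, a call lost on its most variable probe set, and the muscle hexokinase Hk2 fell by 0.99 ± 0.11. In the same samples the widespread transporter Slc2a1 rose by 1.17 ± 0.29, a call lost without saline arrays 1 and 4. The bifunctional enzymes that set the level of a glycolytic activator parted: Pfkfb3 rose by 2.69 ± 0.26 and Pfkfb2, the heart form, fell by 2.02 ± 0.45. Pfkfb2 lay at 5.45, 5.10, 5.24 and 7.93 after LPS against 7.92 to 8.0 after saline, so that array 4 was at the saline level (a fall of 2.68 without it). Energy phosphate genes fell for 13 of 30 and rose for 2: Ak4 fell by 1.57 ± 0.18, the kinase subunit Prkaa2 by 1.33 ± 0.13 and Ckb by 1.36 ± 0.25, while Ampd3 and Ada, which break down adenosine monophosphate and adenosine, rose by 1.91 ± 0.39 and 1.61 ± 0.25. Of 32 genes of triglyceride storage and lipolysis 10 fell and 5 rose, with a median of -0.30. The risers included the lipid droplet genes Plin2 (1.78 ± 0.15) and Plin4 (1.13 ± 0.09) and the lipase Pnpla2 (1.30 ± 0.10), and the falls Lpin1. Apoe, a lipid carrier, lay at 8.09, 7.82, 7.91 and 10.27 after LPS against 10.28 to 10.49 after saline, with arrays 1 to 3 low and array 4 just under the saline range (1.90 ± 0.39 lower, 2.48 without it).

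**Figure D4:**
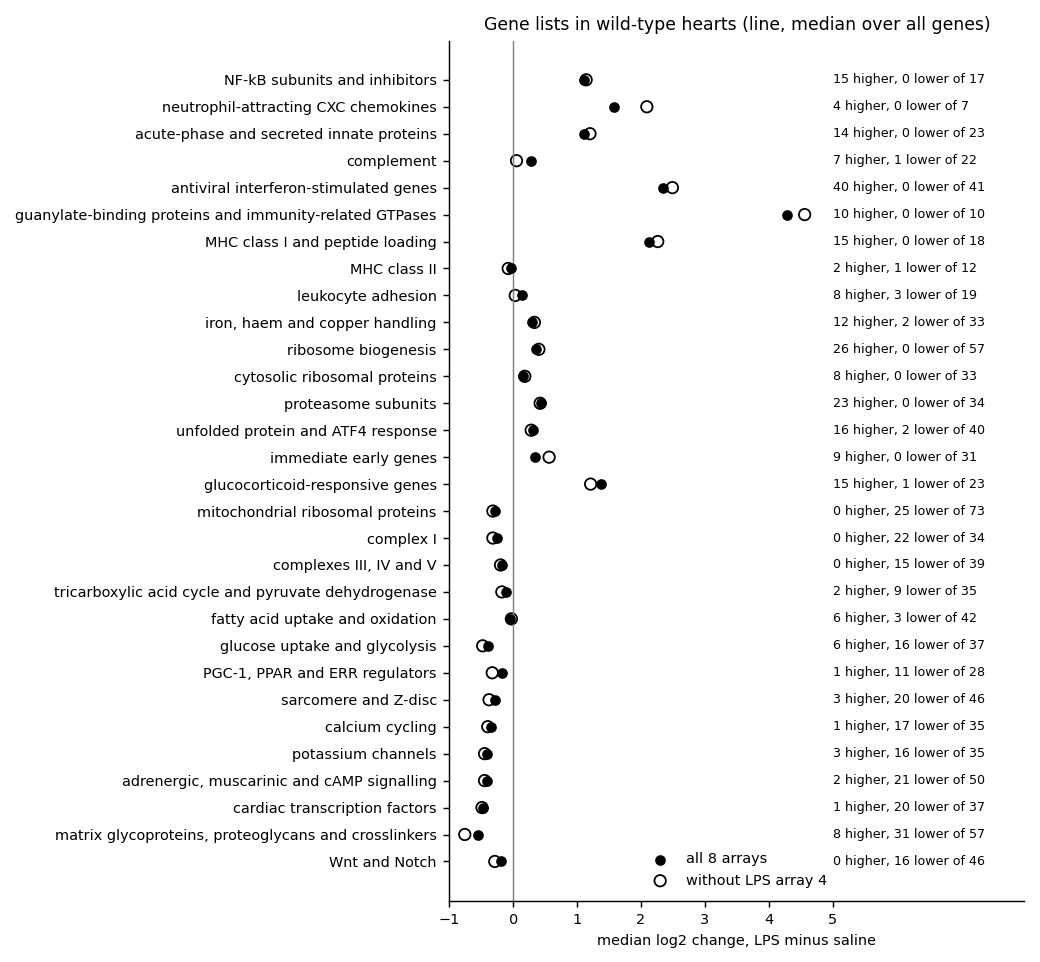
Median log2 change (points) and the number of members called higher and lower (beside each row) for 30 gene lists in wild-type hearts, with all 8 arrays (filled) and without LPS array 4 (open). The median over all genes tested is -0.004.

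Matrix and growth factor lists moved in different directions. Of 57 matrix glycoproteins, proteoglycans and crosslinkers 31 fell and 8 rose. Fmod, a collagen-binding proteoglycan, lay at 6.76, 6.94, 6.57 and 6.92 after saline and 4.53, 4.11, 4.12 and 4.40 after LPS, with all 4 LPS arrays low and under the median over probe sets (2.51 lower). Aspn and Ogn, of the same family, fell by 2.21 ± 0.31 and 2.11 ± 0.38. Lox, which crosslinks collagen, went against the list and lay at 5.69, 5.77, 5.95 and 6.17 after saline and 9.36, 9.49, 9.51 and 8.04 after LPS (3.20 ± 0.27). Collagens fell for 10 of 28 and rose for 2: Col14a1 fell by 2.77 ± 0.31 and Col6a3 by 2.05 ± 0.27, and the basement membrane chain Col4a2 rose by 0.63 ± 0.12. Of 35 metalloproteinases and their inhibitors 11 rose and 7 fell, and of 43 integrin and focal adhesion genes 10 rose and 10 fell. The protease inhibitor Timp1 lay at 5.20, 5.55, 5.36 and 5.25 after saline and 9.54, 9.81, 10.21 and 9.09 after LPS (4.32 ± 0.22) while Timp2 fell by 1.32 ± 0.18. Mmp3, a stromelysin, rose by 3.50 ± 0.37. Insulin and IGF genes fell for 10 of 33 and rose for 3. Igf1, a growth factor, lay at 7.70, 7.67, 8.16 and 8.21 after saline and 5.88, 5.19, 5.43 and 6.10 after LPS and fell by 2.28 ± 0.24, and Igf2 by 1.81 ± 0.22. Of 46 Wnt and Notch genes 16 fell and 0 rose, among them the ligand Wnt5a (1.88 lower) and the Notch effector Heyl (1.25 lower). TGF-beta, activin and BMP genes fell for 13 of 44 and rose for 5. Inhbb, an activin subunit, lay at 9.31, 9.86, 10.14 and 4.83 after LPS against 4.71 to 5.55 after saline, with array 4 within the saline range (3.40 ± 0.81, and 4.64 without it). Ltbp4, which stores TGF-beta in the matrix, fell by 2.12 ± 0.29.

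Vessel genes changed in both directions. Leukocyte adhesion genes rose for 8 of 19 and fell for 3. Selp lay at 4.65, 4.55, 4.96 and 4.39 after saline and 9.21, 8.51, 8.47 and 7.68 after LPS (3.83 ± 0.38), Icam1 at 6.56, 6.37, 6.84 and 6.73 and 10.33, 9.65, 9.61 and 9.72 (3.20 ± 0.19), and the junction protein Jam2 fell by 1.35 ± 0.18. Endothelial junction and identity genes fell for 12 of 30 and rose for 3. Aplnr, the apelin receptor, lay at 9.35, 9.97, 10.09 and 10.19 after saline and 5.91, 5.40, 4.76 and 7.22 after LPS, one of the largest falls (4.08, and 4.54 without array 4). Vegfa, the main angiogenic factor, fell by 1.61 ± 0.21, and Pgf, of the same family, rose by 2.57 ± 0.43. Both subunits of the nitric oxide receptor, Gucy1a1 and Gucy1b1, fell by 1.5 ± 0.32 and 1.40 ± 0.31. Of 26 prostaglandin and leukotriene genes 8 fell, with the receptor Ptgfr at 3.91, 3.68, 3.91 and 5.32 after LPS against 5.86 to 6.57 after saline (2.06 lower), and 1 rose.

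Marker lists of the cell types a heart sample holds were checked in the same arrays. Cardiomyocyte markers were the brightest, with array means of 13.92 to 13.94 after saline and 13.67 to 13.79 after LPS, and fell for 6 of 10. Of 12 endothelium markers 2 fell, 1 rose and 9 were not called (array means 8.76 to 9.15 and 8.49 to 9.22). Their mean differences from the saline mean were -0.33, -0.46, -0.47 and 0.27 in LPS arrays 1 to 4. Without LPS array 4, 6 endothelium markers fell and 1 rose. Of 10 markers of smooth muscle and pericytes 8 fell (array means 8.92 to 9.21 and 7.60 to 8.46), with Tagln 2.09 and Acta2 1.65 lower. Fibroblast markers fell for 4 of 9 (10.17 to 10.37 and 8.81 to 10.05), where Dcn was at 12.49 to 12.60 and 12.56 to 12.88 (adjusted p = 0.19). Neutrophil markers rose for 5 of 11 (3.97 to 4.11 and 5.17 to 5.68). S100a9 lay at 9.43, 8.70, 8.78 and 8.32 after LPS. The granule enzyme Elane and the protease Mmp9 had changes of 0.01 ± 0.10 and 0.21 ± 0.09 (adjusted p = 0.964 and 0.102). All 11 neutrophil markers lay under the median over probe sets after saline, and 6 still did after LPS, so an absent change at that level says little. Adipocyte markers fell for 4 of 5 (6.55 to 7.02 and 3.81 to 5.12). Car3, a carbonic anhydrase of fat, lay at 10.60, 10.42, 10.75 and 11.21 after saline and 3.71, 3.88, 3.43 and 7.19 after LPS and fell by 6.20 ± 0.64 (7.07 without array 4), and Adipoq, the fat hormone adiponectin, by 4.27 ± 0.40. Atrial markers, which a ventricular sample should hold little of, were present and fell for 5 of 6 (10.72 to 11.46 and 10.23 to 10.82). Skeletal muscle markers ranged from 5.70 to 8.70 in the saline arrays and from 5.45 to 5.72 after LPS. Their part in the falls of muscle genes was not tested. Without saline arrays 1 and 4, the pair with the high values, 2061 genes were called. T and NK cell markers had array means of 4.42 to 4.49 and 4.44 to 4.51, near the median over probe sets.

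Macrophage and monocyte markers split the LPS arrays. Their mean differences from the saline mean were 0.13, -0.07, -0.44 and 0.74 in LPS arrays 1 to 4, and over the 8 arrays 2 of 12 were called higher and 3 lower. Mpeg1, a pore-forming protein of phagocytes, rose by 2.65 ± 0.22 and the integrin Itgam by 2.47 ± 0.22, while the resident macrophage receptors Mrc1 and Cx3cr1 fell by 1.23 ± 0.21 and 0.76 ± 0.19. Lyz2, a phagocyte lysozyme, lay at 10.28, 10.40, 10.17 and 10.27 after saline and 9.23, 7.83, 7.27 and 11.55 after LPS, below saline in arrays 1 to 3 and above it in array 4, so that the change of -1.31 ± 0.61 did not pass with array 4 (adjusted p = 0.157) and was -2.17 without it (adjusted p = 2.56e-04). Lyz1, a near-identical copy, had the same order. Across all genes, in array 4, 47 genes lay more than 1 above all 7 other wild-type arrays, against 11 or fewer in any other LPS array. Aif1, a marker of activated macrophages, was at 7.20 in array 4 and 4.32 to 4.90 in the other LPS arrays. Adgre1, which encodes F4/80, was at 8.95 and 6.06 to 7.36, and Cd68, a lysosomal protein of macrophages, at 7.57 and 5.76 to 6.29. Aif1 and Cd68 were chosen after their values were seen.

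**Figure D5:**
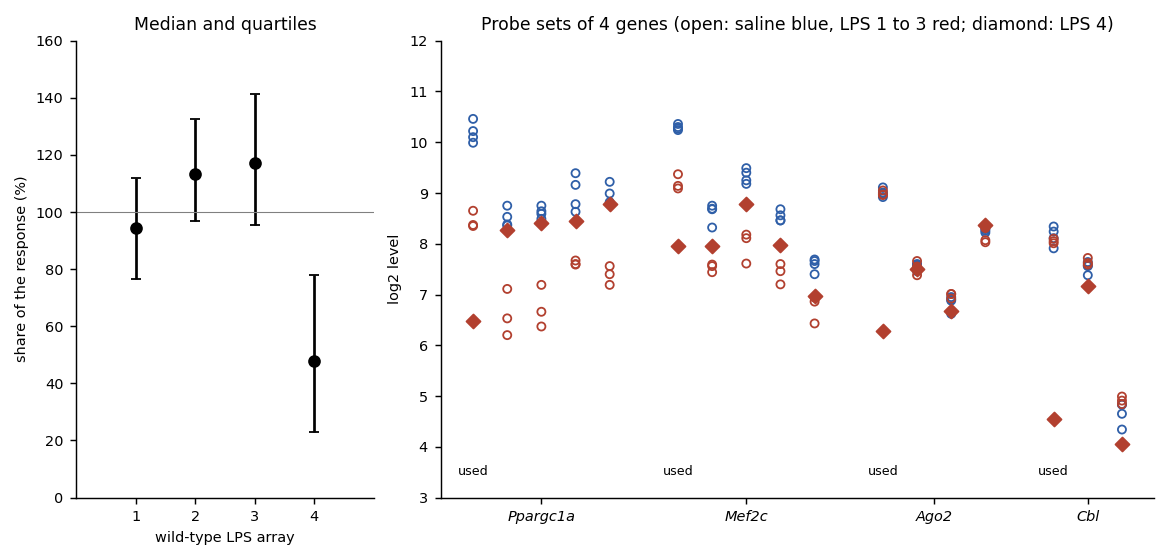
Left, median share of the response shown by each wild-type LPS array over the genes called at least 2-fold without it, with quartiles as bars. Right, log2 level of 4 genes in LPS array 4 (diamonds) and in the 7 other wild-type arrays (open circles) on the probe set used and on the gene's other probe sets above the median level, where array 4 is far below the other arrays for Ppargc1a, Mef2c, Ago2 and Cbl on the probe set used.

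Many genes were far below in array 4 alone on the probe set used, with no further probe set lying as far apart. There were 71 genes more than 1 below all 7 other arrays, against 26 or fewer in the others. Of these, 58 had a further probe set above the median level, and in 45 of the 58 no further probe set put array 4 apart in this way (125 of 143 probe sets). The same held in LPS array 3, where 26 genes lay this far below, 12 had a further probe set and in none of the 12 did it stand apart (0 of 15 probe sets). Further probe sets were dimmer on average over the series than the one used. Those near the median level have little room to fall by more than 1, so these counts cannot show that a fall belongs to 1 probe set. Ago2, of the microRNA machinery, was at 6.28 in array 4 against 8.96 to 9.05 in the other LPS arrays, but on 3 further probe sets it was at 7.51, 6.67 and 8.36 where the other LPS arrays spanned 7.38 to 7.66, 6.92 to 7.01 and 8.03 to 8.31. Cbl, a ubiquitin ligase, was at 4.54 against 8.01 to 8.10, and at 7.17 against 7.59 to 7.72 and 4.06 against 4.84 to 4.99 on further probe sets. On those Cbl probe sets array 4 was thus still the lowest LPS array, by a smaller distance. Of the 47 genes high in array 4 only 9 had such a further probe set, and in 6 of the 9 it too was high. Tiparp, a target of the aryl hydrocarbon receptor, and Resf1, a silencing factor, were each called only without array 4 (1.71 and 1.87, against 0.76 ± 0.58 and 0.86 ± 0.66 with it). Ago2 and Cbl were chosen after their values were seen.

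The test of whether the LPS response differed between wild-type and knockout hearts called 0 of 18193 genes by limma at an adjusted p under 0.05, and 813 (4.47%) at an unadjusted p under 0.05. No part of the response is therefore given as particular to wild-type hearts.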

How the data were processed

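Total RNA of ventricular myocardium was hybridised to Affymetrix arrays, and the deposited values are log2 intensities summarised per probe set with RMA, per the submitters' processing notes; its version and implementation were not given in the sources used here. Of 45101 probe sets, 34945 carried 1 gene symbol, 932 several and 9160 none in the platform annotation; 34741 of the former matched RefSeq. Array medians ran from 4.615 to 4.669, and no read depth applies: the number of arrays limits the precision. Each of 18193 genes was represented by the brightest of its probe sets on average over the series.

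The 4 groups were fitted together in limma 3.58.1 (R 4.3.3; lmFit, eBayes with an intensity trend, 12 residual degrees of freedom), with the contrast of wild-type LPS minus saline and its difference from the knockout contrast. Tests were two-sided with Benjamini-Hochberg adjustment over all genes, and the fit was tested on simulated data. The members, gene lists and markers were chosen with earlier results of these data known. Genes were named by size of change, by list (up to 5 called each way and 3 not called), by abundance and by their dependence on LPS array 4. Correlations of arrays over genes were 0.992 to 0.996 within saline, 0.970 to 0.993 within LPS and 0.961 to 0.975 between them, and no 2 arrays were duplicates. Deviations of same-numbered LPS and saline arrays from their group means correlated at 0.0813, -0.0549, -0.0354 and 0.0205. This check showed no pairing by replicate number, but it cannot exclude a small shared effect. Alternatives were the 8 wild-type arrays alone, the replicate number as a block, other scalings, other probe set choices, a filter on dim genes, no trend, array weights and arrays left out. The targeted receptor's gene is not reported here.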

Additional observations from a re-analysis of the deposited data

Results flagged for a closer look

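In 50 of the 406 groups of 4 arrays formed by the 203 named genes, 1 array lay apart from the other 3 by more than Dixon's 95% limit; chance flags about 1 in 20 groups. LPS array 4 accounted for 30 of them. The genes were named with these data in view, and values are log2 levels. LPS array 4 was the lowest of its group, and apart from it, for Irak3 (7.38), Osmr (9.18), Mt2 (11.22), Mt1 (13.17), Slc39a14 (9.03), Psma5 (10.95), Myc (5.52), Junb (6.70), Pde4b (6.86) and Ppargc1a (6.48). LPS array 4 was also the lowest of its group, and apart from it, for Pdk4 (12.34), Angptl4 (6.62), Prkaa2 (9.01), Lox (8.04), Inhbb (4.83), Ago2 (6.28), Cbl (4.54), Tiparp (5.61) and Resf1 (6.41). LPS array 4 was the highest of its group, and apart from it, for Car3 (7.19), Adipoq (5.24), Ptgfr (5.32), Ly86 (5.69), Jph2 (9.76), Perm1 (8.14), Pfkfb2 (7.93), Ckb (8.85), Apoe (10.27) and Ltbp4 (8.36). LPS array 4 was also the highest of its group, and apart from it, for Acta2 (10.21). LPS array 1 was the lowest of its group, and apart from it, for Cx3cr1 (3.90), Ccl5 (7.12), Cd74 (7.23) and Mrpl19 (7.02). LPS array 1 was the highest of its group, and apart from it, for Mrpl18 (9.34) and Icam1 (10.33). LPS array 2 was the highest of its group, and apart from it, for C1ra (9.80). Saline array 1 was the lowest of its group, and apart from it, for Cxcl2 (2.97), Usp18 (3.94), Casp4 (4.95), Il18 (4.57), H2-Ab1 (7.17), Socs3 (5.36) and Igf2 (8.26). Saline array 1 was the highest of its group, and apart from it, for Ndufb10 (12.91). Saline array 3 was the lowest of its group, and apart from it, for Saa3 (4.13), Tuba4a (13.26) and Ak4 (8.07). Saline array 2 was the lowest of its group, and apart from it, for Cxcl10 (4.34). Saline array 4 was the lowest of its group, and apart from it, for Il18bp (5.67).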

How the results depend on the processing

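The counts of called genes (3798, 1689 higher and 2109 lower) stayed within 1.5 times under every alternative except 2 kinds. Without saline arrays 1 and 4 together 2061 were called, 949 higher and 1112 lower, and leaving out LPS array 4 as well gave 3306; both fits hold fewer samples. A fold minimum of 1.5 left 2247 and of 2 left 1031, by construction. Leaving out 1 array at a time gave 3005 to 4902 genes, 1363 to 1999 higher and 1605 to 2903 lower; the highest of each came without LPS array 4. Array weights, which gave LPS array 4 a weight of 0.217, called 5432. The fit with the replicate block called 3537, and 2887 over the 8 wild-type arrays alone. The check of deviations showed no pairing of same-numbered samples but cannot exclude it. Median centring split the calls into 1828 higher and 1921 lower. The difference between genotypes called 0 genes under each alternative run. The share of array 4 was 49.8% on the probe sets used and 46.2% on others, a comparison chosen after seeing the data. Of 4058 values of the 203 named genes under alternatives, 3999 kept their side of the threshold, 30 lost a call, 29 gained one and 0 turned a called direction. The cause of these moves was not tested. Of the 203 genes 171 were called, and many were named for large changes, which favours keeping a call.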
